A study of Mus musculus with 6 samples.

Results

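The 10 genes described here encode 6 S100 proteins (S100a4, S100a6, S100a8, S100a9, S100a10 and S100a11) and 4 annexins (Anxa1, Anxa2, Anxa3 and Anxa5), and were taken by gene symbol from the 15035 rows of a table of normalised read counts. All 10 were found, and 9 had values high enough to be tested. RNA-seq was done on BALB/c mouse bone marrow leukemia cells in 3 libraries of cells treated with 4 nM GSK-LSD1 for 48 h and 3 libraries of cells given DMSO for 48 h. GSK-LSD1 inhibits LSD1, a demethylase that acts on histones. Cells of both groups carried mutant CSF3R, the receptor of granulocyte colony-stimulating factor, and mutant CEBPA, a myeloid transcription factor, introduced with retroviruses, and were kept in IMDM with fetal bovine serum. Whether replicates are distinct cultures is not stated in the labels, and p-values therefore reflect only the spread among these libraries, which may be technical.

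S100 proteins are small cytosolic proteins that bind calcium through paired EF hands and then expose a surface that docks onto other proteins. Annexins bind the inner face of membranes, at phosphatidylserine and related lipids, when calcium rises. The families meet in fixed complexes: S100A10 joins annexin A2, and S100A11 binds annexin A1. S100A8 and S100A9 form calprotectin, an abundant cytosolic complex of neutrophils, which also acts outside the cell as an alarm signal. Annexin A1, also stored in neutrophils, is a ligand of formyl peptide receptors and limits neutrophil recruitment.

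Depth was similar, at 9572638 to 10156775 reads with GSK-LSD1 and 10103081 to 10199533 reads with DMSO, if the lowest value of each library stands for 1 read. Values below are normalised read counts, and fold changes are GSK-LSD1 over DMSO on the log2(value + 1) scale, tested with limma and Benjamini-Hochberg adjustment over 11588 genes at a threshold of 0.05. Of 9 genes of a myeloid leukemia cell, all in the table and tested, 4 rose (Csf3r 4.08-fold, Itgam 3.53-fold, Ptprc 1.501-fold and Mpo 1.21-fold), 3 fell (Ms4a3 2.21-fold, Elane 1.89-fold and Prtn3 1.59-fold), and Cebpa and Kit did not pass. Over all genes tested, 20.6% rose and 20.5% fell. The part that the changes of these 9 genes play in the results below was not tested. Mpo had 8819 to 9134 with GSK-LSD1 and 7149 to 7824 with DMSO, and Cebpa had 4279 to 4376 with GSK-LSD1 and 3802 to 4869 with DMSO, while Kit had 19.4 to 43.5 with GSK-LSD1 and 26.8 to 35.2 with DMSO. Genes of mast cells and basophils were also abundant, with a sum over 8 markers of 34951 to 36312 with GSK-LSD1 and 26544 to 29012 with DMSO. The largest part was Cpa3, at 22443 to 23636 with GSK-LSD1 and 13603 to 15439 with DMSO. Of the 8 markers, all tested, 3 rose, 1 (Fcer1a, 1.28-fold) fell and 4 did not pass.

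With GSK-LSD1, 7 of the 9 tested genes rose and 1, Anxa2, fell by a small amount, while S100a10 did not pass the threshold. Among all genes tested, 41.1% passed, 20.6% as higher and 20.5% as lower. The sizes of the rises were far apart, from 1.29-fold for S100a11 to 4.84-fold for S100a6. The median log2 fold change was 0.55 over the 9 tested genes and -0.01 over all genes tested. In the 7 genes that rose, the 3 GSK-LSD1 libraries lay above the 3 DMSO libraries without overlap, as they did in 24.7% of all genes tested. None of the 9 lay wholly below, against 24.8% of all genes tested. The 10 genes together took 0.122% to 0.123% of all signal with GSK-LSD1 and 0.0689% to 0.0761% with DMSO.

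**Figure D1:**
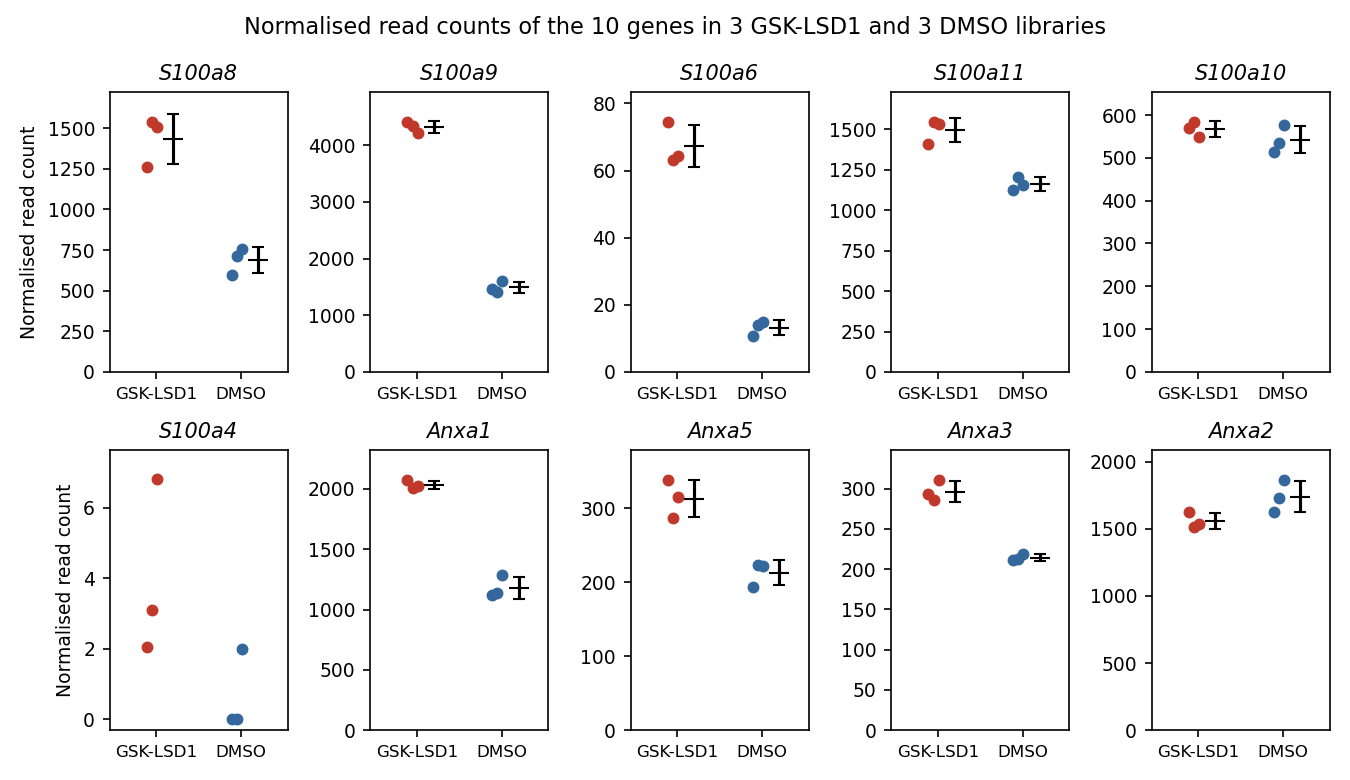
Normalised read counts (vertical axis, from 0, or just below it for S100a4) of the 10 genes in the 3 GSK-LSD1 and the 3 DMSO libraries; coloured points are libraries and black bars the mean with its SD, not drawn for S100a4, whose libraries include values of 0. The GSK-LSD1 points lie above the DMSO points in all panels but S100a10 and Anxa2. For S100a4 the lowest GSK-LSD1 and the highest DMSO library held 2 reads each and differ only by scaling. S100a4 rests on 12 reads with GSK-LSD1 and 2 with DMSO.

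The genes of both subunits of calprotectin rose, S100a9 more than S100a8. S100a9 (ENSMUSG00000056071.12, chr3:90692632-90695721, minus strand, GRCm38) had 4410.4, 4340.1 and 4216 normalised read counts in GSK-LSD1 libraries, against 1464, 1418 and 1606 in DMSO libraries. All 3 GSK-LSD1 libraries were far above all 3 DMSO libraries, and values within a group lay close together. S100a9 averaged 4322 ± 98.35 with GSK-LSD1 and 1496 ± 97.8 with DMSO (SD, n = 3 each), a 2.89-fold rise (log2 fold change 1.53, 95% interval 1.43 to 1.63, adjusted p = 1.88e-24 by limma). Ordered by log2 fold change, it stood in place 256 of the 11588 genes tested, counted from the largest rise.

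S100a8 (ENSMUSG00000056054.9, chr3:90668978-90670035, plus strand) had 1260.0, 1538 and 1505 normalised read counts in GSK-LSD1 libraries, against 596, 714 and 754 in DMSO libraries. GSK-LSD1 replicate 1 and DMSO replicate 1 were each the lowest of their group, and the groups stayed apart. S100a8 averaged 1434 ± 152 with GSK-LSD1 and 688 ± 82.2 with DMSO (SD, n = 3 each), a 2.09-fold rise (log2 fold change 1.06, standard error 0.0701, adjusted p = 5.46e-15 by limma). Among all genes tested, 4.51% were called with a rise of at least 2-fold, and S100a6, S100a8 and S100a9 were among them. Together S100a8 and S100a9 took 0.0574% to 0.0593% of all signal with GSK-LSD1 and 0.0207% to 0.0233% with DMSO.

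In RNA, the balance of the subunit genes did not overlap between the groups. Protein was not measured in these data. The ratio of S100a9 to S100a8 was 3.50, 2.82 and 2.80 in GSK-LSD1 libraries, against 2.46, 1.98 and 2.13 in DMSO libraries. No GSK-LSD1 library had a ratio as low as a DMSO library, and the mean log2 ratio was higher by 0.47 with GSK-LSD1. An exact two-sided permutation test gave p = 0.1, the smallest that 3 libraries against 3 allow, and 0.1 after adjustment over the 3 ratios tested. A ratio within a library does not depend on how the libraries were scaled.

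S100a8 and S100a9 are markers of neutrophils and monocytes, so the levels of these cells' other markers are given here. Of 8 markers of mature neutrophils, 7 were in the table, with a sum of 16349.8 to 16931 with GSK-LSD1 and 2749 to 2927 with DMSO, most of it from Mmp8. Of the 5 tested, Lcn2, Mmp8, Mmp9 and Cxcr2 rose and Ngp fell. The late granule gene Ltf stayed at 0 to 3.11 with GSK-LSD1 and 2.99 to 6.94 with DMSO, and Retnlg was 1.95 to 5.18 with GSK-LSD1 and 0 in all 3 DMSO libraries. The 8 markers of monocytes and macrophages had a sum of 1606 to 1719 with GSK-LSD1 and 631 to 688 with DMSO. Of the 7 tested, 6 rose, against 20.6% of all genes tested. The part of these cells in the rise of S100a8 and S100a9 was not tested. In bulk RNA, more cells of a type and more RNA per cell cannot be told apart.

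Sums were low for other lineages. The 3 red cell markers in the table had a sum of 5.10 to 10.35 with GSK-LSD1 and 94.7 to 130.4 with DMSO, and all 3 fell. The 3 T cell markers in the table had a sum of 91.1 to 95.9 with GSK-LSD1 and 118 to 141 with DMSO, most of it Lck, which fell. Cd3d was at 0 in all 3 GSK-LSD1 libraries and in 2 of the 3 DMSO libraries. For B cells, 2 markers were in the table, with a sum of 1.035 to 5.10 with GSK-LSD1 and 0.996 to 3.91 with DMSO. Neither was tested. The 3 NK cell markers in the table had a sum of 149.9 to 190.5 with GSK-LSD1 and 184 to 237 with DMSO, and 1 of the 2 tested fell. Pdgfrb, Col1a1 and Epcam, the 3 genes in the table from the list for fibroblasts, endothelium and epithelium, had a sum of 377 to 404 with GSK-LSD1 and 320.3 to 339 with DMSO; 2 rose and Epcam fell. Over all genes tested, 20.6% rose and 20.5% fell. The part of these lineages in the results was not tested.

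The 10 genes differ in direction and size of change. The 250 bases upstream of the start of 5 of them are shown, from RefSeq on GRCm38.p6, which held an entry for 8 of the 10 genes. S100a6, S100a9, S100a8 and Anxa1 are the 4 with the largest rises, and Anxa2 is the one that fell. Each sequence runs 5′ to 3′ on the strand of its gene and ends just before the start that RefSeq gives, which can differ from that of the gene model used for coordinates. Capitals mark matches to 6 motifs: C/EBP (TTGCNNAA), PU.1 (GAGGAA), STAT (TTCNNNGAA), AP-1 (TGANTCA) and GFI1 (AAATCA) on either strand, and a TATA box (TATAAA) on the gene's strand.
S100a6: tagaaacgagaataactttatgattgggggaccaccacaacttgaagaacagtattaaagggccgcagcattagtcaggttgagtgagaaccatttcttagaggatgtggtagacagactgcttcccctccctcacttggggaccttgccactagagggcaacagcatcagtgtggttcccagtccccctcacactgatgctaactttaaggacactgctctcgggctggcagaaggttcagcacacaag
S100a9: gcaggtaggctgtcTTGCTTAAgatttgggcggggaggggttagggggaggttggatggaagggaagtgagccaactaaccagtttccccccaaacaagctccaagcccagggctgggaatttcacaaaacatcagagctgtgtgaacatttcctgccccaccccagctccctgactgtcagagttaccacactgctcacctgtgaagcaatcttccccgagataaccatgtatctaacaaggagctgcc
S100a8: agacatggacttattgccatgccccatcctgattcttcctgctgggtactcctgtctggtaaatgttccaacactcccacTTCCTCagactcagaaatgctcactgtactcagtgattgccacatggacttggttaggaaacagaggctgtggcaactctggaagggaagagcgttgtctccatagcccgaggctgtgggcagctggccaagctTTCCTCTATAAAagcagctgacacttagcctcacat
Anxa1: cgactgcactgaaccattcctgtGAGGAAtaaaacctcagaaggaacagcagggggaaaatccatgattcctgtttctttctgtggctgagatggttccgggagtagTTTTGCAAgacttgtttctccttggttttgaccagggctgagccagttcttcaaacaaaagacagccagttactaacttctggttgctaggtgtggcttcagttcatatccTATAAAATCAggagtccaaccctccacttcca
Anxa2: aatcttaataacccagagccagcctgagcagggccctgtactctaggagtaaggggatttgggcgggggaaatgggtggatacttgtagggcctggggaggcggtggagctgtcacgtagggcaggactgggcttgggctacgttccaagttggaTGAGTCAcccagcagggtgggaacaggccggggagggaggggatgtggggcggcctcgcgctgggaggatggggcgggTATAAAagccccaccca

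The windows lie at chr3:90612644-90612893 for S100a6, chr3:90695722-90695971 for S100a9, chr3:90668821-90669070 for S100a8, chr19:20390672-20390921 for Anxa1 and chr9:69453433-69453682 for Anxa2. S100a8 held 2 PU.1 matches, the nearer one next to a TATA box 30 bases upstream of the start. S100a9 held 1 C/EBP match, 236 bases upstream, and S100a6 none of the 6 motifs. Anxa1 held a PU.1 match at 227 bases, a C/EBP match at 143 bases, and a TATA box whose last 2 bases are the first of a GFI1 match, 28 bases upstream. Anxa2 held an AP-1 match at 95 bases and a TATA box. Among the windows not shown, that of S100a11, which rose, also held AP-1 matches, at 136 and 38 bases, and a PU.1 match at 153 bases. S100a4 held a TATA box 31 bases upstream, and Anxa5 none of the 6 motifs. Of 32851 such windows in RefSeq, 9.56% held the C/EBP motif, 23.2% PU.1, 7.02% STAT, 6.75% AP-1, 12.4% GFI1 and 7.59% the TATA box. These matches describe letters and not bound sites, and their part in the changes was not tested.

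S100a6 had the largest fold change of the 9 genes, at a low level. It encodes calcyclin, a small S100 protein that binds CACYBP. S100a6 (ENSMUSG00000001025.8, chr3:90612882-90624181, plus strand) had 74.5, 63.1 and 64.2 normalised read counts in GSK-LSD1 libraries, against 10.7, 13.9 and 14.9 in DMSO libraries. Every GSK-LSD1 library lay well above every DMSO library. The means were 67.3 ± 6.25 with GSK-LSD1 and 13.2 ± 2.18 with DMSO (SD, n = 3 each), 4.84-fold higher (log2 fold change 2.28, 95% interval 1.82 to 2.73, adjusted p = 1.42e-10 by limma). The interval was the widest of the 9 tested genes. Its DMSO libraries held 11, 14 and 15 reads.

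S100a4, known for binding non-muscle myosin and for its link to cell migration and metastasis, was near the limit of detection. It had 2, 3 and 7 reads in GSK-LSD1 libraries, against 0, 0 and 2 in DMSO libraries. The highest DMSO library, at 1.99 normalised read counts, lay just below the lowest GSK-LSD1 library, at 2.04. Both held 2 reads, so this gap comes from the scaling alone. Summed over libraries, the ratio of 12 to 2 reads, corrected for depth, was 6.21, with a 95% counting interval of 1.38 to 57.2 that covers counting error only. A same-strand gene model, Gm42674, shares 302 exon bases with S100a4. S100a4 fell below the minimum for the test. Without that minimum its log2 fold change was 1.68, with an adjusted p of 0.0235 by limma.

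S100a10 and Anxa2, the genes of the partners of a complex that holds plasminogen and its activators at the cell surface, did not rise. S100a10 (ENSMUSG00000041959.14, chr3:93555080-93564643, plus strand) had 569, 584 and 548 normalised read counts in GSK-LSD1 libraries, against 515, 535 and 577 in DMSO libraries. The groups overlapped, and the log2 fold change was 0.065 with a 95% interval of -0.067 to 0.197 (adjusted p = 0.448 by limma). That interval leaves room for a change of up to 1.15-fold upward. Unlike the S100 genes named above, S100A10 cannot bind calcium.

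Anxa2 (ENSMUSG00000032231.14, chr9:69453620-69491795, plus strand) had 1627.2, 1512 and 1538 normalised read counts in GSK-LSD1 libraries, against 1627.0, 1730.1 and 1860.5 in DMSO libraries. The highest GSK-LSD1 library and the lowest DMSO library were almost equal. The means were 1559 ± 60.4 with GSK-LSD1 and 1739 ± 117 with DMSO (SD, n = 3 each), and the gene fell 1.11-fold (log2 fold change -0.16, standard error 0.0520, adjusted p = 0.0149 by limma). This call was lost without DMSO replicate 3 (log2 fold change -0.11, adjusted p = 0.094), without GSK-LSD1 replicate 2 (-0.135, 0.0828) or without GSK-LSD1 replicate 3 (-0.15, 0.0654). It was also lost with quantile scaling (-0.12, 0.0569) and without a mean-variance trend (-0.16, 0.127). A gene model on the other strand, Gm16144, shares 98 exon bases with Anxa2, and whether reads were counted by strand is not known from the labels.

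Within each library, the ratio of S100a10 to Anxa2 was 0.3498, 0.386 and 0.356 with GSK-LSD1, against 0.316, 0.309 and 0.310 with DMSO. The DMSO libraries were very close together, and all 3 GSK-LSD1 libraries were higher. The mean log2 ratio was 0.22 higher with GSK-LSD1 (exact two-sided permutation p = 0.1, the smallest possible).

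The genes of both partners of the second complex rose, and Anxa1 rose more than S100a11. Anxa1 (ENSMUSG00000024659.15, chr19:20373428-20390944, minus strand) had 2072, 2008 and 2022 normalised read counts in GSK-LSD1 libraries, against 1120.1, 1137 and 1285 in DMSO libraries. The 3 GSK-LSD1 libraries differed little, and DMSO replicate 3 was the highest of its group. Anxa1 averaged 2034 ± 33.6 with GSK-LSD1 and 1181 ± 90.9 with DMSO (SD, n = 3 each), a 1.73-fold rise (log2 fold change 0.79, standard error 0.0524, adjusted p = 6.71e-15 by limma).

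S100a11 (ENSMUSG00000027907.4, chr3:93520488-93526287, plus strand), whose protein binds the N-terminus of annexin A1, had 1412, 1546 and 1532 normalised read counts in GSK-LSD1 libraries, against 1128, 1208 and 1154 in DMSO libraries. All 3 GSK-LSD1 libraries were above the DMSO libraries by a modest step. The means were 1497 ± 73.8 with GSK-LSD1 and 1163 ± 40.8 with DMSO (SD, n = 3 each), 1.29-fold higher (log2 fold change 0.36, standard error 0.0521, adjusted p = 5.87e-07 by limma). Among annotated transcripts, 5 processed pseudogenes align to S100a11 at 90.6% to 99.0% identity over 227 to 303 bases, so reads could be shared and its value is uncertain to that extent.

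The ratio of S100a11 to Anxa1 was 0.681, 0.770 and 0.758 in GSK-LSD1 libraries, against 1.01, 1.06 and 0.898 in DMSO libraries. Every GSK-LSD1 library was below every DMSO library. The mean log2 ratio was lower by -0.42 with GSK-LSD1 (exact two-sided permutation p = 0.1, the smallest possible).

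**Figure D2:**
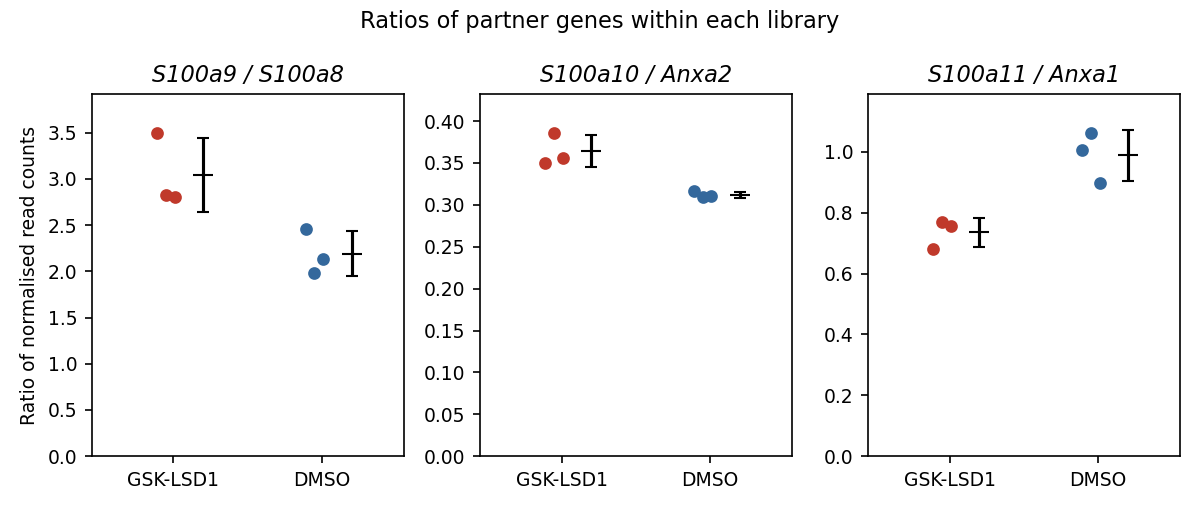
Ratio of the normalised read counts of S100a9 to S100a8, S100a10 to Anxa2 and S100a11 to Anxa1 (vertical axes, from 0) in the 3 GSK-LSD1 and the 3 DMSO libraries; points are libraries, black bars the mean of the ratios with its SD. The groups do not overlap in any of the 3 panels: the first 2 ratios are higher and the third lower with GSK-LSD1.

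Of the other annexins among the 10 genes, Anxa5 rose 1.47-fold and Anxa3 1.38-fold. Annexin A5 coats membranes that expose phosphatidylserine and is the reagent used to stain dying cells. Anxa5 (ENSMUSG00000027712.13, chr3:36448923-36475894, minus strand) had 338, 287 and 314 normalised read counts in GSK-LSD1 libraries, against 193, 223 and 222 in DMSO libraries (log2 fold change 0.55, standard error 0.0894, adjusted p = 4.47e-06 by limma). Annexin A3 is abundant in neutrophils, where it associates with granules. Anxa3 (ENSMUSG00000029484.12, chr5:96793339-96845966, plus strand) had 293, 286 and 310.5 normalised read counts in GSK-LSD1 libraries, against 211, 213 and 219 in DMSO libraries (log2 fold change 0.465, adjusted p = 3.24e-05 by limma). Neither gene's groups overlapped, and of the DMSO values of the 10 genes those of Anxa3 were the closest together, with a coefficient of variation of 1.95%. A same-strand gene model, Gm42603, shares 112 exon bases with Anxa3.

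Per kilobase of merged exon length, the order of the levels differed between the groups. With GSK-LSD1 the mean level was 8280.1 ± 188 normalised read counts per kilobase for S100a9, 2929 ± 144 for S100a11 and 2067 ± 219 for S100a8 (SD, n = 3). With DMSO the same genes had 2866 ± 187, 2276 ± 79.9 and 991 ± 118 per kilobase (SD, n = 3), so S100a9 and S100a11 stood much closer together. Next came Anxa1 at 699 ± 11.5 per kilobase with GSK-LSD1 and 406 ± 31.2 with DMSO. S100a10 had 468 ± 14.9 per kilobase with GSK-LSD1 and 447.5 ± 26.4 with DMSO, and Anxa2 had 418 ± 16.2 with GSK-LSD1 and 466 ± 31.4 with DMSO. With GSK-LSD1 the per-kilobase order was Anxa1, S100a10, Anxa2, with gaps larger than the SDs. With DMSO it was Anxa2, S100a10, Anxa1, and neighbours in that order differed by less than the sum of their SDs. Below them, Anxa5 had 176 ± 14.4 per kilobase with GSK-LSD1 and 119.7 ± 9.46 with DMSO, and Anxa3 had 81.3 ± 3.50 with GSK-LSD1 and 58.8 ± 1.15 with DMSO. S100a6, at 49.2 ± 4.57 with GSK-LSD1 and 9.64 ± 1.59 with DMSO, and S100a4 stood last in both groups. Merged exon length counts every annotated isoform, which lowers the level of genes with long rare isoforms.

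Among the rest of both families, 3 annexins passed the test and no S100 gene did. Of 11 other S100 genes listed, 4 were in the table and 2 were tested. S100a1 had 169, 174 and 141 normalised read counts with GSK-LSD1 and 177, 169 and 181 with DMSO, and S100a13 had 156, 131 and 146 with GSK-LSD1 and 141, 145 and 202 with DMSO. Neither passed the threshold (adjusted p = 0.351 for S100a1 and 0.334 for S100a13 by limma), and S100a7a and S100a14 had at most 2.07. Of 8 other annexin genes, 6 were in the table, and 3 of the 5 tested rose, against 20.6% of all genes tested. Anxa6, whose protein binds membranes and cholesterol-rich domains, had 1847, 1800.0 and 1734 normalised read counts with GSK-LSD1 and 862, 947 and 818 with DMSO, a 2.05-fold rise against 1.73-fold for Anxa1, a difference that was not tested (adjusted p = 8.61e-18 by limma). Anxa4 rose 1.27-fold without overlap. Anxa11 rose 1.16-fold with overlap, and lost its call without GSK-LSD1 replicate 1 (adjusted p = 0.109), without DMSO replicate 1 (0.0621) or without a mean-variance trend (0.139). Anxa7 and Anxa9 did not pass (adjusted p = 0.312 and 0.317 by limma), and Anxa10 had at most 0.991.

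**Figure D3:**
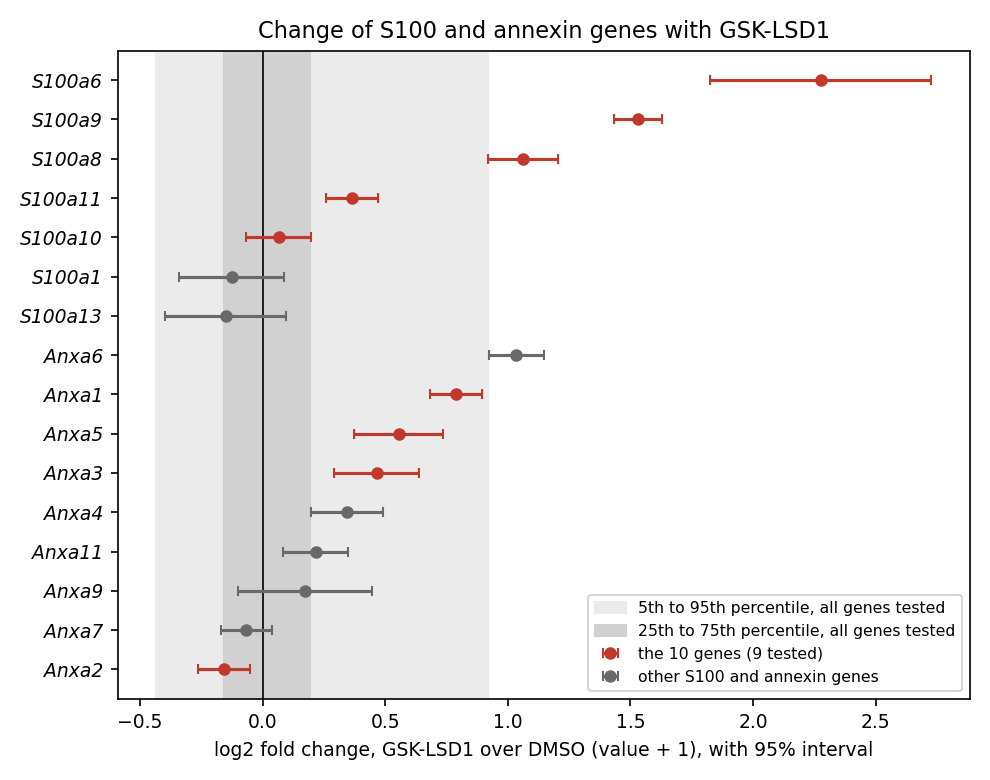
Log2 fold change with GSK-LSD1 over DMSO (horizontal axis, log2 scale of value + 1) of the tested S100 and annexin genes; points are the fitted values and bars their 95% intervals, red for the 9 tested genes of the 10 and dark grey for other family members, with bands for the middle of all 11588 genes tested. S100a6, S100a9, S100a8 and Anxa6 lie beyond the 95th percentile of all genes tested, at 0.917.

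All 6 S100 genes lie on chromosome 3, in 2 separate places. S100a4, S100a6, S100a8 and S100a9 stand together, with the starts of S100a8 and S100a9 26.7 kb apart and on opposite strands. S100a11 and S100a10 stand 2825 kb further along, with starts 34.6 kb apart. The rises were larger in the first place, at 2.28, 1.06 and 1.53 on the log2 scale for S100a6, S100a8 and S100a9, than in the second, at 0.36 and 0.065 for S100a11 and S100a10. Within 100 kb of a start of the 6 genes, 3 others were tested, all at the far side of the first place, and none passed: S100a1, S100a13 and Chtop, which encodes a chromatin-associated RNA-binding protein and had a log2 fold change of -0.06. Pglyrp4, beyond S100a9, had at most 2.07 normalised read counts, and Tchh, near S100a11, at most 1.035. The difference between the places was not tested.

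**Figure D4:**
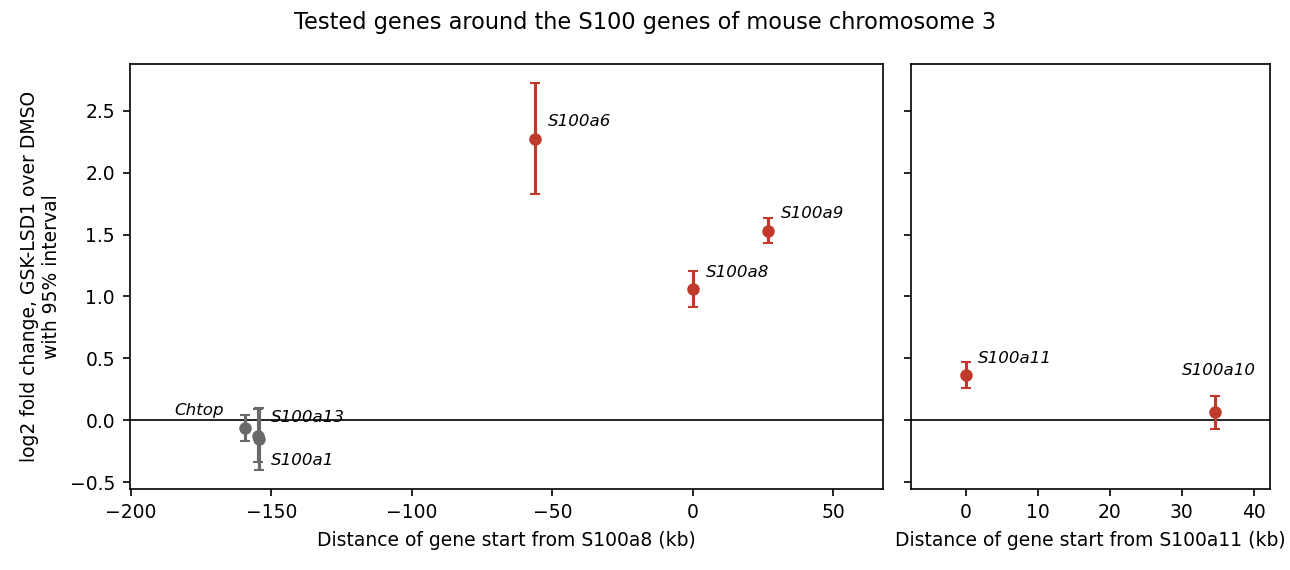
Log2 fold change with GSK-LSD1 over DMSO (vertical axis, with 95% intervals) of the tested genes near the S100 genes of chromosome 3, by distance of their start (kb) from S100a8 on the left and from S100a11 on the right; red points are among the 10 genes and grey points are neighbours. S100a6, S100a8 and S100a9 lie above 1, while S100a1, S100a13 and Chtop lie near 0.

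Receptors through which S100A8, S100A9 and annexin A1 act were measured in the same libraries. Of 16 listed, 12 were in the table and tested: 7 rose, 1 fell and 4 did not pass. Over all genes tested, 20.6% rose and 20.5% fell. Fpr1 and Fpr2, receptors of annexin A1 and of formyl peptides, were low. Fpr1 had 31.6, 32.1 and 32.1 normalised read counts with GSK-LSD1 and 2.93, 1.98 and 1.99 with DMSO, and Fpr2 had 51.0, 40.4 and 40.9 with GSK-LSD1 and 3.91, 0.991 and 9.96 with DMSO (log2 fold changes 3.33 and 3.24, adjusted p = 2.18e-09 and 1.98e-08 by limma). Both passed the filter on low values through the GSK-LSD1 libraries alone.

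Emb, which encodes embigin, a receptor reported for S100A8, had 10023.6, 10236 and 10010.0 normalised read counts with GSK-LSD1 and 3432, 3539.5 and 3846 with DMSO, a 2.80-fold rise. Cd33, reported as an S100A9 receptor in human cells, rose 2.62-fold. Cd14, the co-receptor of TLR4, rose 1.44-fold, and Nptn, a relative of embigin, 1.21-fold. Tlr4 itself had 25.5, 18.6 and 30.2 normalised read counts with GSK-LSD1 and 14.6, 14.9 and 12.9 with DMSO. Its rise was past the threshold (adjusted p = 0.0297 by limma), but not without GSK-LSD1 replicate 1 (0.0851), GSK-LSD1 replicate 3 (0.161) or DMSO replicate 3 (0.0685), nor with quantile scaling (0.185). Bsg, which encodes basigin, fell, at 3883, 3822.5 and 3846 with GSK-LSD1 and 4539, 4838 and 4475.5 with DMSO. Ager, which encodes the receptor RAGE, had 16.6 to 34.1 with GSK-LSD1 and 14.9 to 26.8 with DMSO and did not pass (adjusted p = 0.562 by limma).

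In the plasminogen system that uses annexin A2 and S100A10 as a receptor, 8 of 9 listed genes were in the table. Among the 5 tested, 3 rose, 1 fell and 1 did not pass, against 20.6% higher and 20.5% lower of all genes tested. Plaur, the urokinase receptor gene, had 273, 218 and 221 normalised read counts with GSK-LSD1 and 132, 149.6 and 120.4 with DMSO, a 1.77-fold rise. Plau, which encodes urokinase, had 29.6, 31.05 and 29.2 with GSK-LSD1 and 14.6, 12.9 and 13.9 with DMSO (adjusted p = 0.00103 by limma). Plgrkt, which encodes another plasminogen receptor, rose 1.42-fold. Plau had all GSK-LSD1 libraries above all DMSO libraries, as did 24.7% of all genes tested. Plaur and Plgrkt were named by a rule that asks for no overlap.

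Of 8 intracellular partners tested, 3 rose, 3 fell and 2 did not pass, against 20.6% higher and 20.5% lower of all genes tested. Ahnak, a very large scaffold protein gene whose product binds the annexin A2 and S100A10 complex, had 223, 227 and 229.7 normalised read counts with GSK-LSD1 and 113, 112 and 112.5 with DMSO, a 2.00-fold rise. Ppfibp1 and Myh9, which encode S100A4 partners, rose 1.32-fold and 1.22-fold. Cacybp, which encodes a target of S100A6, fell, with a log2 fold change of -0.345, as did the co-chaperone gene Stip1 (-0.27). Pla2g4a, which encodes the cytosolic phospholipase A2 that annexin A1 was first known to inhibit, had 490, 511 and 515 with GSK-LSD1 and 689.5, 730.3 and 749.6 with DMSO (log2 fold change -0.52, adjusted p = 1.78e-08 by limma).

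Genes of the exposure and recognition of phosphatidylserine, the lipid that annexin A5 binds, went both ways. Among the 11 tested, 6 rose, 2 fell and 3 did not pass, against 20.6% higher and 20.5% lower of all genes tested. Axl, a receptor tyrosine kinase that recognises the lipid through bridging ligands, had 256, 233 and 209 normalised read counts with GSK-LSD1 and 59.6, 64.4 and 82.6 with DMSO, a 3.37-fold rise. The bridging protein gene Mfge8 rose 1.59-fold and Atp11a, a flippase gene, 1.41-fold. Plscr1 fell, with a log2 fold change of -0.22. Xkr8, a scramblase gene of dying cells, had 76.5, 82.8 and 93.4 with GSK-LSD1 and 94.7, 111 and 112.5 with DMSO. Its call (log2 fold change -0.33, adjusted p = 0.0482 by limma) was lost without GSK-LSD1 replicate 1 (0.171), GSK-LSD1 replicate 2 (0.101), DMSO replicate 2 (0.139) or DMSO replicate 3 (0.141). It was lost as well without the filter on low values (0.0727), with upper quartile scaling (0.0575) and without a mean-variance trend (0.0519).

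The genes with a pattern most like S100a8 and S100a9 over the 6 libraries were picked by the distance between log2 values after the DMSO mean was taken off. For S100a9 they were Tjp1, which encodes a tight junction scaffold, Il6st, which encodes the shared receptor gp130, and Emb, at distances of 0.0795, 0.0935 and 0.114 log2 units. Il6st had 1433, 1438 and 1358 normalised read counts with GSK-LSD1 and 499, 448 and 509 with DMSO. For S100a8 they were Ccdc125, Kctd12 and Akr1c13, at distances of 0.1904, 0.242 and 0.244. Like S100a8, the nearest, Ccdc125, was lowest in replicate 1 of each group, which the choice by distance favours. These distances describe 6 libraries that fall into 2 groups.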

How the data were processed

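RNA-seq was measured in 6 libraries, 3 per group, assigned by their titles. The authors deposited a normalised signal for each gene symbol: low values are whole multiples of each library's smallest value (0.973 to 1.035; tolerance 0.1), as counts divided by 1 factor per library would be. Per the submitters' processing notes, the tools included STAR and DESeq2, and the build was mm10 (GRCm38). How reads were assigned to genes, by strand or not, and which filters were used is not given in the sources used here. Symbols of 22 rows had become dates; they stayed in the fit.

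Genes with a value of at least 10 in at least 3 libraries were tested (11588; 3447 were left out) with limma 3.58.1 in R 4.3.3 on log2(value + 1), two-sided, with a mean-variance trend and no replicate term, checked on simulated data. The simulated data gave every gene the same spread beyond sampling noise, so they do not cover genes with a wider spread. Count models were not run. The intervals of log2 fold changes come from the limma fit, which pools each gene's spread among libraries with the trend over all genes. Without that trend, the adjusted p by limma was 0.00156 for S100a8 and 3.68e-05 for S100a9. The interval of the S100a4 read ratio covers counting error only. Libraries of 1 group differed by more than sampling noise (chi-square per degree of freedom 1.57 to 3.51). Equal replicate numbers did not pair libraries (correlations of deviations -0.03 to -0.01). Coordinates are those of GENCODE M21 (GRCm38), and transcripts were compared with blastn 2.17.0.

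The members and lists were chosen with earlier results of these data known. Some listed genes that were tested and counted are not reported here by name. Named were the 10 genes, every other S100 and annexin gene in the table, neighbours within 100 kb, receptors and partners by role, and up to 3 genes per direction of each list with a mean value of at least 50, past the threshold and without overlap. The closing section gives the effect of other pseudocounts, filters, scalings, a replicate term and libraries left out.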

Additional observations from a re-analysis of the deposited data

How the results depend on the processing

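Under 14 alternatives, or 13 for S100a6, which was not tested at a mean value of at least 50, S100a6, S100a8, S100a9, S100a11, Anxa1, Anxa3 and Anxa5 stayed past the threshold in the same direction and S100a10 stayed short of it. Their log2 fold changes kept within 1.995 to 2.37 for S100a6, 1.49 to 1.58 for S100a9, 0.96 to 1.15 for S100a8, 0.75 to 0.85 for Anxa1, 0.487 to 0.616 for Anxa5, 0.425 to 0.491 for Anxa3, 0.339 to 0.404 for S100a11 and 0.028 to 0.111 for S100a10. The number of the 10 genes called lower, 1, was 0 with quantile scaling and 0 without a mean-variance trend, and 0 to 1 when single libraries were left out; the cause was not tested. The number called higher, 7, was 8 without the filter on low values, where S100a4 was added, and 6 at a mean value of at least 50, where S100a6 is not tested. With the replicate number as a block, 2345 genes were higher and 2316 lower, against 2389 and 2373 without it, and no call among the 10 genes changed. The log2 ratio of S100a9 to S100a8 stayed 0.37 to 0.56 higher when single libraries were left out (S100a10 to Anxa2 0.18 to 0.25 higher, S100a11 to Anxa1 -0.49 to -0.37), and the same 3 ratios under a block of replicates gave an exact sign-flip p of 0.25, the smallest that 3 pairs allow. Calm3, Capns1 and Atp2a3, named below, lost their calls under several alternatives. Depth limits S100a4 and the DMSO values of S100a6, Fpr1 and Fpr2.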

Other observations

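Genes that move calcium across membranes went both ways. Of 18 genes of calcium entry, release and pumping, 8 rose, 2 fell and 8 did not pass by limma with Benjamini-Hochberg adjustment. Shares over all genes tested were 20.6% higher and 20.5% lower. The median log2 fold change of the 18 genes was 0.05. Stim2, a calcium sensor of the endoplasmic reticulum, had 1035.5, 1028 and 1029.7 normalised read counts with GSK-LSD1 and 523, 521 and 592 with DMSO, a 1.89-fold rise. Trpv2, a calcium-permeable channel gene, rose 1.68-fold and Itpr3, a gene of the calcium release channel, 1.44-fold, while its relative Itpr1 fell (log2 fold change -0.25), as did the pump gene Atp2a3 (-0.13). Trpm2, a calcium-permeable channel gene picked after its values were seen because its level was too low for the naming rule, had 62.2, 66.2 and 67.2 with GSK-LSD1 and 10.7, 11.9 and 10.95 with DMSO, a 5.43-fold rise.

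Among 17 other cytosolic calcium sensors and calcium-dependent actin binders, 3 rose, 3 fell and 11 did not pass, with a median of 0.003. Both counts lay near the shares of all genes tested, 20.6% higher and 20.5% lower. Capn2, which encodes the large subunit of a calcium-activated protease, had 2140.4, 2007 and 1978 normalised read counts with GSK-LSD1 and 698, 747 and 767.5 with DMSO, a 2.77-fold rise. Capns1, the gene of its small subunit, fell by a little (log2 fold change -0.13). Capg, an actin-capping protein gene, rose 1.37-fold and Sri, which encodes sorcin, 1.15-fold, while Actn4 (-0.24) and Calm3 (-0.16) fell.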
